A study of Mus musculus with 3 samples.

Results

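Endothelial cells line the blood and lymphatic vessels. They were picked out of single-cell RNA libraries of the mouse hindstomach at embryonic day 18.5 by 8 genes that this cell type shares: Pecam1, Cdh5, Kdr, Cldn5, Tie1, Egfl7, Emcn and Esam. Cells entered if they had 500 or more genes with a UMI (unique molecular identifier, 1 per captured RNA molecule) and no more than 20% mitochondrial UMIs. Such a cell was a member if at least 4 of the 8 genes had a UMI. A member was called lymphatic if at least 2 of Prox1, Flt4, Mmrn1, Reln and Lyve1 had a UMI, and blood otherwise. This rule selected 834 of 21602 cells, of which 680 were blood and 154 lymphatic endothelial members.

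The libraries came from Shh-Cre;YAP5SA, Shh-Cre;YaploxP/loxP (Yap knockout) and Shh-Cre (control) embryos, with 1 library per genotype. All 3 genotypes carry Shh-Cre, a recombinase driven by the Shh gene, which is active in the stomach epithelium. YAP5SA is a form of the transcriptional co-activator YAP that its inhibitory kinases can no longer phosphorylate at the mutated sites. How many embryos were pooled for a library is not stated in the labels. With 1 library per genotype there is no replicate check of any difference and no p-value is given. The 95% intervals cover counting error only, and genotype cannot be told apart from embryo, dissociation or library. Both mutants are set against the same control library, so their differences from it are not independent of each other.

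Blood endothelium is divided into arteries, capillaries and veins. Arterial cells are marked by Notch ligands and targets, the transcription factor Sox17 and connexins, and they help to build the elastic wall. Capillary cells carry fatty acid and retinol handling proteins, and venous cells carry the transcription factor Nr2f2 and, when stimulated, the adhesion molecules that let leukocytes leave the blood. Lymphatic endothelium is set apart by the transcription factor Prox1, by the receptor for VEGF-C (Flt4) and by the chemokine CCL21, which guides dendritic cells and T cells.

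Promoters of 3 genes are shown because the results turn on them: Tie1, an endothelial receptor and a gene of the rule; Lrg1, the endothelial gene with the highest ratio of YAP5SA to control; and Ccl21a, the gene that most sharply separated lymphatic cells. Each line holds the 250 bases before the annotated start, 5′ to 3′ on the gene's strand, from RefSeq (GRCm38.p6). Capitals mark the 7-base motif CNGGAAG, searched on both strands, which holds the GGAA core bound by ETS factors, a family that includes the endothelial regulators Fli1 and Ets1. Copies of the motif do not overlap in these windows.
Tie1, chr4:118489850-118490099, minus strand: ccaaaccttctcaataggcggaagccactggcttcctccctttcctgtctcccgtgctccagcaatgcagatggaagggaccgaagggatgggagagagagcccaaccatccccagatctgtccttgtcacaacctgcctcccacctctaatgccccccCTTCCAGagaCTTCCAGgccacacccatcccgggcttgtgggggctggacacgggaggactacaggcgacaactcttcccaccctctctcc
Lrg1, chr17:56121947-56122196, minus strand: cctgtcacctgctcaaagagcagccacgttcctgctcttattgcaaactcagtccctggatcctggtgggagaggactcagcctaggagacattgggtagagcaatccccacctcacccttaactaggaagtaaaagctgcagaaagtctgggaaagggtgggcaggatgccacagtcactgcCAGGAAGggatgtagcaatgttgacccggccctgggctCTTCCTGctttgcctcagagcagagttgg
Ccl21a, chr4:42773992-42774241, minus strand: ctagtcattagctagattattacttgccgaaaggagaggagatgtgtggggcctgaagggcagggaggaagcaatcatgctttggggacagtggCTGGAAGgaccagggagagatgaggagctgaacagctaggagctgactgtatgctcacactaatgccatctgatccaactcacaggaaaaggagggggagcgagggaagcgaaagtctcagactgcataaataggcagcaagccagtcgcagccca
Tie1 and Lrg1 had 2 copies each and Ccl21a had 1. The motif was in 8733 of 32851 promoter windows of this length (26.6%), with 2 or more copies in 1576 (4.80%). Of the 8 rule genes, 5 had an entry, with 7 promoters, of which 4 held the motif (57.1%). A match describes the letters of these windows and shows no binding.

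Members made up 255 of 9029 cells in YAP5SA (2.82%, 95% Clopper-Pearson interval 2.49 to 3.19), 288 of 5201 in Yap knockout (5.54%, 4.93 to 6.19) and 291 of 7372 in control (3.95%, 3.51 to 4.42). The Yap knockout library held the highest share and the YAP5SA library the lowest. Detection of the rule genes depends on depth, and the median UMIs of members were 8181 in YAP5SA, 9035 in Yap knockout and 11083 in control, against 5205.5, 4870 and 4825 in the non-members of the same libraries. With each cell thinned to 2000 UMIs, the shares were 2.10% in YAP5SA, 4.37% in Yap knockout and 2.73% in control, in the same order. Thinning left out 1466, 1013 and 1190 shallower cells of these libraries, among them 23, 25 and 17 members. A share depends as much on the yield of the other cell types as on the endothelium, and this was not tested.

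The label was checked against 30 endothelial genes that the rule does not use, among them Tek, Eng and Flt1, summed and scaled to CPM (the UMIs that a gene would have if the UMIs of all genes in the cells concerned summed to 10 to the power of 6). The sum grew steeply with the number of rule genes in a cell, but not over the whole range of members. In members with exactly 4 rule genes it was 827 CPM in YAP5SA, 610.0 CPM in Yap knockout and 713 CPM in control. Non-members without any rule gene had 682, 450.4 and 816 CPM in the same libraries. Members with 4 rule genes thus lay near cells that the rule rejects, and in control below them. At 6 rule genes the sum was 5438 CPM in YAP5SA, 5180.0 CPM in Yap knockout and 5681 CPM in control. The cells with exactly 4 genes numbered 46, 45 and 76 and were deep, with median UMIs of 12616, 17756 and 17428, so that they held 24.4%, 26.3% and 34.5% of all UMIs of members. Of these cells, 76.1%, 68.9% and 82.9% also had at least 2 markers of another lineage. Among members with all 8 rule genes it was 75.9%, 50.4% and 68.1%, so in YAP5SA this share did not set the cells with 4 genes apart.

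**Figure D1:**
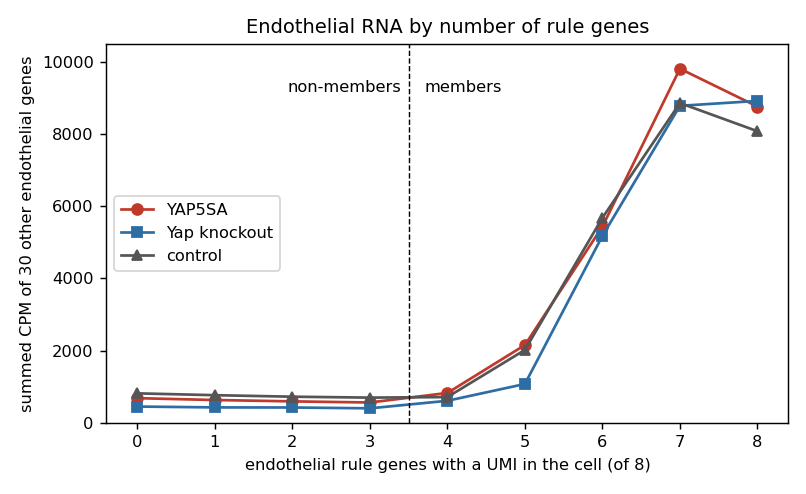
Summed CPM of 30 endothelial genes outside the rule (y axis) in cells grouped by the number of the 8 rule genes with a UMI (x axis), 1 line per library. Members lie right of the dashed line, and the cells with 4 rule genes, at 827 CPM in YAP5SA, 610.0 CPM in Yap knockout and 713 CPM in control, sit near the non-members.

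Blood endothelium was therefore also read in a strict class, defined after these values were seen. A member entered it with at least 6 of the 8 rule genes and fewer than 4 of the 5 lymphatic genes. The class is not a subset of the blood members. Cells with at least 2 but fewer than 4 lymphatic genes, which the rule called lymphatic, could enter. Lrg1 had 954 UMIs in strict blood cells of YAP5SA against 760 in blood members of that library. The strict class thus shares cells with the lymphatic members. It held 164 cells in YAP5SA, 214 in Yap knockout and 176 in control, with median UMIs of 8083.5, 8418 and 9097.5, and so less uneven in depth than the blood members as chosen (190, 252 and 238 cells; medians 6497.5, 8469 and 9964.5). CPM below are of this strict class unless the text says otherwise, and values of all blood members are given where the ratio moves by over 1.5 times or changes direction. Markers of other lineages remained, and they differed between libraries in the strict class too. Of members with 6 or more rule genes, 60.2% in YAP5SA, 40.2% in Yap knockout and 54.7% in control had at least 2 markers of another lineage. At all 8 rule genes mesothelial markers summed to 616, 46.9 and 73.3 CPM in these libraries. Platelet and haematopoietic markers summed to 5066, 27732 and 5338 CPM at 7 rule genes, but to 7522, 1803 and 7917 CPM at 8. Of 11 immune markers, 10 were measured in strict blood cells of YAP5SA against control and 9 were at least 2-fold higher, beside 2.48% of all genes. Their summed level was 1113 CPM in YAP5SA, 217 CPM in Yap knockout and 220.1 CPM in control. The summed level of 10 fibroblast markers was 3813 CPM in YAP5SA, 1153 CPM in Yap knockout and 7572 CPM in control, and that of 11 mural and muscle markers 2954, 2318 and 3384 CPM. The non-members of these libraries differed in the same directions for the immune markers of YAP5SA (3379 against 1104 CPM in control) and for the fibroblast markers (10819 CPM in YAP5SA, 4149 CPM in Yap knockout and 21930 CPM in control). The part of this RNA in the results was not tested.

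YAP5SA expression and the Yap deletion follow from Shh-Cre, so the targeted gene was read in epithelium and in endothelium. In non-member cells with an Epcam UMI, an epithelial marker, Yap1 had 54.0 CPM in YAP5SA (51.2 to 56.9), 29.2 CPM in Yap knockout (25.8 to 32.9) and 58.0 CPM in control (51.6 to 65.0). It was lower in the Yap knockout library there. In strict blood cells Yap1 had 68.7 CPM in YAP5SA, 64.3 CPM in Yap knockout and 58.8 CPM in control, and the ratios to control were 1.17-fold higher (0.914 to 1.49) and 1.09-fold higher (0.864 to 1.38). No depletion of Yap1 was seen in endothelium, where both intervals include 1. The files do not tell the YAP5SA transcript from Yap1, and the 3′ tags that are counted may lie outside the deleted part. Wwtr1, the paralogue of Yap1 that encodes TAZ, had 224 CPM in YAP5SA, 281 CPM in Yap knockout and 198 CPM in control, and was 1.42-fold higher (1.26 to 1.60) in Yap knockout. Of 26 target genes of YAP and TEAD, 19 were measured in YAP5SA against control with 2 higher and 0 lower at 2-fold, beside 2.48% higher and 1.29% lower of all genes. In Yap knockout against control 18 were measured with 3 higher and 0 lower, beside 3.64% and 2.46% of all genes. Ccn1, a matricellular target gene, had 164 CPM in YAP5SA, 397 CPM in Yap knockout and 237 CPM in control, so it was 1.44-fold lower (1.26 to 1.66) in YAP5SA and 1.68-fold higher (1.51 to 1.87) in Yap knockout. Over all blood members the Yap knockout level of Ccn1 was 1.04-fold higher, close to control. Ccn2, a growth factor binding protein and also a target gene, had 45.0 CPM in YAP5SA, 69.6 CPM in Yap knockout and 30.5 CPM in control. It was 1.48-fold higher (1.07 to 2.05) in YAP5SA and 2.29-fold higher (1.72 to 3.05) in Yap knockout, but 2.36-fold higher in YAP5SA over all blood members. Its level in non-members was 83.1, 64.8 and 43.6 CPM.

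In blood endothelium of the YAP5SA library, several genes of veins and of leukocyte adhesion, led by Lrg1 and Selp, were higher than in control. The capillary genes Rbp7, Fabp4 and Tcf15 were lower. Meox2 was lower too, but it stayed below 50 CPM and was called only among the gene lists. A gene was called when it differed at least 2-fold, on log2(CPM + 5), and reached 50 CPM in either library. Over all blood members 157 of 3845 genes were higher (4.08%) and 200 lower (5.2%), and in strict blood cells 95 of 3849 were higher (2.47%) and 48 lower (1.25%). For the gene lists, which were read from 20 CPM, the shares over all genes in strict blood cells were 2.48% higher and 1.29% lower of 7592, with a median log2 ratio of 0.03. Of 30 pan-endothelial genes outside the rule, 30 were measured and 0 were called in either direction, with a median of −0.03. Over all blood members 29 were measured, with 2 higher and 0 lower and a median of 0.31, so their direction depended on the class. The shares over all genes at 20 CPM were 3.77% higher and 4.93% lower for blood members.

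Of 20 venous genes, 18 were measured in strict blood cells, 4 were higher in YAP5SA and 0 lower, with a median log2 ratio of 0.44. The 4 were Lrg1, Selp, Tmem252 and Il1r1. Lrg1, which encodes a secreted glycoprotein that modifies TGF-beta signalling in endothelium and is induced in inflamed vessels, had 493 CPM in YAP5SA, 21.8 CPM in Yap knockout and 11.004 CPM in control. The YAP5SA library stood far above the other two. It was 44.8-fold higher (95% interval 30.4 to 69.0) in YAP5SA than in control, and 76.8-fold higher (46.2 to 138) over all blood members. Lrg1 RNA was in 89 of 164 strict blood cells of YAP5SA, 24 of 214 of Yap knockout and 15 of 176 of control. In non-members 7.27%, 0.875% and 0.424% of cells had a UMI of it. At 2000 UMIs per cell the shares of Lrg1 were 42.6% in YAP5SA, 5.37% in Yap knockout and 2.34% in control among strict blood cells, and 2.56%, 0.357% and 0.102% among non-members. Its level in non-members was 23.2 CPM in YAP5SA, 1.60 CPM in Yap knockout and 0.820 CPM in control, which is the same order.

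Selp encodes P-selectin, which slows leukocytes on the venous wall, and it had 127 CPM in YAP5SA, 108 CPM in Yap knockout and 15.7 CPM in control. Both mutant libraries were above control, YAP5SA 8.09-fold higher (5.71 to 11.8) and Yap knockout 6.87-fold higher (4.85 to 9.97). Over all blood members Selp was 5.35-fold higher in YAP5SA. Its UMIs in YAP5SA were 245 in strict blood cells, 113 in blood members and 140 in lymphatic members, so many lay in cells that the rule called lymphatic. A single cell held 22.9% of the Selp UMIs in YAP5SA, 21.8% in Yap knockout and 35.1% in control. The other selectin of activated endothelium, Sele, had 18.1 CPM in YAP5SA, 5.36 CPM in Yap knockout and 2.54 CPM in control. Ackr1, a chemokine-binding receptor of venules, had 18.1 CPM in YAP5SA, 7.83 CPM in Yap knockout and 1.27 CPM in control. Both were sparse, with the highest level in YAP5SA. Without blood members that carried markers of other lineages Sele had 0 UMIs in YAP5SA and 1 in control, and Ackr1 had 0 in YAP5SA and 2 in control, too few to compare.

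Vcam1, an adhesion molecule for lymphocytes and monocytes, had 26.9 CPM in YAP5SA, 21.8 CPM in Yap knockout and 16.1 CPM in control. Icam1, which binds leukocyte integrins, had 209.8 CPM in YAP5SA, 319 CPM in Yap knockout and 145 CPM in control. Icam1 was 2.20-fold higher (1.93 to 2.50) in Yap knockout and 1.45-fold higher (1.25 to 1.67) in YAP5SA. Il1r1, the receptor for interleukin-1, had 51.7 CPM in YAP5SA, 67.6 CPM in Yap knockout and 18.6 CPM in control, again with both mutants above control. Nr2f2, the transcription factor of venous identity, had 149 CPM in YAP5SA, 142 CPM in Yap knockout and 89.7 CPM in control. Ephb4, the receptor for ephrin-B2, had 145 CPM in YAP5SA, 175 CPM in Yap knockout and 127 CPM in control. Both lay within 2-fold of control in either mutant.

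Of 35 genes of leukocyte adhesion and inflammation, 26 were measured, 7 were higher in YAP5SA and 0 lower, with a median log2 ratio of 0.57, and this list shares Lrg1, Selp and Il1r1 with the venous one. Cxcl2, a chemokine that attracts neutrophils, had 276 CPM in YAP5SA, 68.4 CPM in Yap knockout and 60.5 CPM in control. Its level in non-members was higher still, at 901 CPM in YAP5SA, 424 CPM in Yap knockout and 219 CPM in control. Csf3, the growth factor of granulocytes, had 47.0 CPM in YAP5SA, 23.9 CPM in Yap knockout and 14.4 CPM in control and was 3.27-fold higher (2.18 to 5.00) in YAP5SA. Tnfaip3, a brake on NF-kappa-B signalling, had 38.2 CPM in YAP5SA, 24.7 CPM in Yap knockout and 11.004 CPM in control and was 3.48-fold higher (2.20 to 5.66). All 3 were highest in YAP5SA. The immune markers given above were also higher in this library, in strict blood cells (1113 CPM, against 220.1 CPM in control) and in non-members, and their part in these levels was not tested.

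Other endothelial genes were among the highest too. Igfbp7, a secreted protein that binds insulin-like growth factors and coats vessels, had 3098 CPM in YAP5SA, 955 CPM in Yap knockout and 1274 CPM in control. It was 2.43-fold higher (2.33 to 2.54) in YAP5SA and 1.33-fold lower (1.26 to 1.41) in Yap knockout, and its level in non-members was 863, 230.1 and 819 CPM. Slco2a1, a transporter that clears prostaglandins, had 444 CPM in YAP5SA, 239.8 CPM in Yap knockout and 149 CPM in control, so it was 2.98-fold higher (2.63 to 3.38) in YAP5SA. Ramp3, which turns a receptor towards the vasodilator peptide adrenomedullin, had 113 CPM in YAP5SA, 20.6 CPM in Yap knockout and 18.6 CPM in control and was 6.05-fold higher (4.36 to 8.57). Fam167b, a gene with no role given here, had 182 CPM in YAP5SA, 35.0 CPM in Yap knockout and 34.3 CPM in control. It was 5.31-fold higher (4.16 to 6.84) in YAP5SA, and over the blood members without markers of other lineages its log2 ratio was 1.42 in place of 2.23. Ecm1, an extracellular matrix protein, had 134 CPM in YAP5SA, 36.7 CPM in Yap knockout and 33.9 CPM in control. These genes were highest in YAP5SA, and for Ramp3, Fam167b and Ecm1 the Yap knockout level was close to control.

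Capillary genes pointed the other way in part. Of 25, 22 were measured in strict blood cells, with Ramp3 higher and 4 lower, and a median log2 ratio of −0.19. Fabp4, a carrier of fatty acids in capillary cells, had 771 CPM in YAP5SA, 1979 CPM in Yap knockout and 1849.5 CPM in control and was 2.40-fold lower (2.26 to 2.55) in YAP5SA. Rbp7, which binds retinol, had 41.3 CPM in YAP5SA, 114 CPM in Yap knockout and 175 CPM in control and was 4.24-fold lower (3.33 to 5.45) in YAP5SA. Over all blood members Rbp7 had 37.1 CPM in Yap knockout and 99.2 CPM in control, a log2 ratio of −1.31. The size of its fall in Yap knockout thus depended on the class. Tcf15 and Meox2 encode transcription factors that, as a pair, control fatty acid uptake in heart capillaries of the mouse. Tcf15 had 48.6 CPM in YAP5SA, 127 CPM in Yap knockout and 124 CPM in control and was 2.56-fold lower (2.02 to 3.27) in YAP5SA. Meox2 had 8.27 CPM in YAP5SA, 23.5 CPM in Yap knockout and 21.6 CPM in control, near the 20 CPM from which the lists were read. In strict blood cells all 4 capillary genes were lowest in YAP5SA, and for Fabp4, Tcf15 and Meox2 the Yap knockout level was near control. Cd36, a fatty acid receptor, had 127 CPM in YAP5SA, 277 CPM in Yap knockout and 222 CPM in control and was 1.75-fold lower (1.50 to 2.04) in YAP5SA, short of the 2-fold threshold. Fabp4 was found in 45.2% of thinned strict blood cells of YAP5SA, 82.9% of Yap knockout and 77.8% of control, against 2.09%, 6.78% and 7.82% of thinned non-members.

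**Figure D2:**
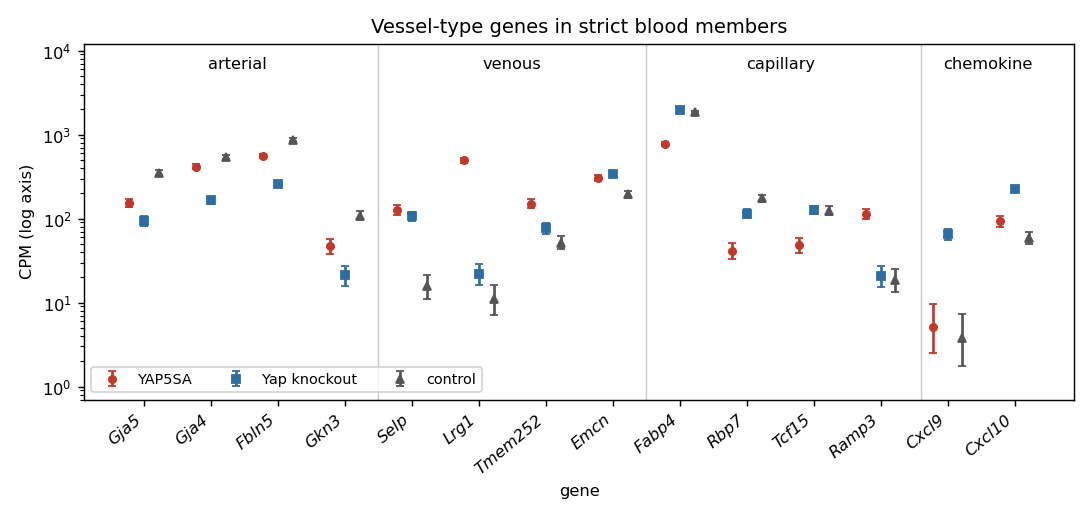
CPM (log axis) of genes of arteries, veins, capillaries and interferon-induced chemokines in strict blood cells of the 3 libraries, with exact 95% Poisson intervals that cover counting error only. Lrg1 stands out in YAP5SA (493 CPM), the arterial connexins Gja5 and Gja4 are lowest in Yap knockout (94.0 and 166 CPM), and Cxcl9 is high in Yap knockout alone (64.7 CPM).

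In blood endothelium of the Yap knockout library, 5 of 22 arterial genes, led by the connexins Gja5 and Gja4, and the elastic wall gene Eln were lower than in control. The chemokines Cxcl9 and Cxcl10 and 6 of 35 measured endothelial transcription factors were higher. Over all blood members 144 of 3881 genes were higher (3.71%) and 163 lower (4.2%). In strict blood cells 155 of 4019 were higher (3.86%) and 106 lower (2.64%). For the lists, at 20 CPM, 3.64% of 7737 genes were higher and 2.46% lower in strict blood cells, with a median log2 ratio of 0.05.

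Of 24 arterial genes, 22 were measured in Yap knockout against control, 0 were higher and 5 lower, with a median log2 ratio of −0.45. In YAP5SA against control 22 were measured, 0 were higher and 2 lower, with a median of −0.38. The YAP5SA result depended on the class, for over all blood members 0 of 22 were called and the median was 0.16. Gja5, the connexin of large arteries, had 155 CPM in YAP5SA, 94.0 CPM in Yap knockout and 351 CPM in control. It was 3.74-fold lower (3.23 to 4.35) in Yap knockout and 2.27-fold lower (1.99 to 2.60) in YAP5SA, but 1.27-fold lower in YAP5SA over all blood members. Gja4, a second arterial connexin, had 413 CPM in YAP5SA, 166 CPM in Yap knockout and 535 CPM in control, so it was 3.23-fold lower (2.88 to 3.62) in Yap knockout and 1.30-fold lower (1.18 to 1.42) in YAP5SA. Over all blood members Gja4 was 3.42-fold lower in Yap knockout and 1.15-fold higher in YAP5SA. In strict blood cells both connexins were highest in control and lowest in Yap knockout. At 2000 UMIs per cell Gja4 was found in 34.2% of strict blood cells of YAP5SA, 14.1% of Yap knockout and 41.5% of control, and in 0.982%, 0.306% and 1.79% of non-members. The level of Gja5 in non-members had the same order, at 3.66 CPM in YAP5SA, 2.50 CPM in Yap knockout and 11.2 CPM in control.

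Fbln5, Eln and Mgp, picked with their values known, were each lowest in Yap knockout. Fbln5, an assembly protein of elastic fibres, had 552 CPM in YAP5SA, 257 CPM in Yap knockout and 874 CPM in control and was 3.41-fold lower (3.11 to 3.73) in Yap knockout. Eln, which encodes elastin itself, had 3118 CPM in YAP5SA, 1279 CPM in Yap knockout and 5190.5 CPM in control and was 4.06-fold lower (3.90 to 4.22). Mgp, an inhibitor of BMP signalling and of arterial calcification, had 1579 CPM in YAP5SA, 848 CPM in Yap knockout and 2907 CPM in control and was 3.43-fold lower (3.26 to 3.60). Non-members carried less of Eln and Mgp, and there too Yap knockout was lowest: 863, 288 and 1135 CPM for Eln and 858, 414 and 1111 CPM for Mgp. Fbln5 was also lower in non-members of Yap knockout, at 16.4 CPM against 58.0 CPM in those of control. Of 10 fibroblast markers 8 were measured in strict blood cells and 8 were lower in Yap knockout (1153 CPM in all, against 7572 CPM in control), and their part in the levels of Fbln5, Eln and Mgp was not tested.

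Htra1, a secreted protease, had 131 CPM in YAP5SA, 62.2 CPM in Yap knockout and 231 CPM in control and was 3.71-fold lower (3.09 to 4.47). Gkn3, a marker of arterial endothelium in the mouse as well as a stomach mucosal gene, had 47.0 CPM in YAP5SA, 21.0 CPM in Yap knockout and 109 CPM in control and was 5.18-fold lower (3.82 to 7.13), but 1.21-fold lower over all blood members. In non-members Htra1 was lower in Yap knockout too, at 12.9 CPM against 37.9 CPM in control. Gkn3 was higher there, at 47.3 CPM against 30.2 CPM. Without members that carried markers of other lineages the log2 ratios over blood members lay further from 0 in Yap knockout, at −2.51 for Gja5 against −1.47 with them and at −2.56 for Gja4 against −1.72. For Fbln5 they were −2.62 against −1.51, for Eln −2.54 against −1.79 and for Htra1 −2.87 against −1.79.

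The other 17 measured arterial genes lay within 2-fold of control in Yap knockout, while the median log2 ratio of the list was −0.45. Efnb2, the arterial ephrin, had 79.1 CPM in YAP5SA, 113 CPM in Yap knockout and 94.0 CPM in control. Hey1, a Notch target, had 72.4 CPM in YAP5SA, 68.4 CPM in Yap knockout and 70.3 CPM in control. Dll4, the arterial Notch ligand, had 72.9 CPM in YAP5SA, 87.0 CPM in Yap knockout and 103 CPM in control. None of the 3 was 2-fold apart from control in either mutant. Unc5b, a netrin receptor, had 96.6 CPM in YAP5SA, 158 CPM in Yap knockout and 118 CPM in control and was 1.34-fold higher (1.14 to 1.57) in Yap knockout. Of 18 Notch pathway genes, 15 were measured and 0 were called in either direction, with a median log2 ratio of 0.06.

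A class sum does not tell fewer arterial cells from less arterial RNA per cell, so strict blood cells were split by the number of arterial and venous genes with a UMI, a split chosen after these values were seen. At least 5 of 10 arterial genes (Gja4, Gja5, Dll4, Hey1, Efnb2, Sox17, Bmx, Sema3g, Unc5b and Jag1) were found in 54 of 164 cells of YAP5SA (32.9%, 25.8 to 40.7), 44 of 214 of Yap knockout (20.6%, 15.4 to 26.6) and 89 of 176 of control (50.6%, 42.9 to 58.2). At least 5 of 8 venous genes (Nr2f2, Ephb4, Aplnr, Vwf, Selp, Ackr1, Lrg1 and Nrp2) were found in 63 (38.4%, 30.9 to 46.3), 52 (24.3%, 18.7 to 30.6) and 32 cells (18.2%, 12.8 to 24.7) of the same libraries. The 2 splits overlap, with 12 cells of YAP5SA, 6 of Yap knockout and 12 of control in both. Control held the largest arterial and the smallest venous share. Among non-members these shares were at most 0.102% for the arterial and 0.388% for the venous genes. With each cell thinned to 2000 UMIs and at least 2 genes required, the arterial share was 45.8% in YAP5SA, 27.3% in Yap knockout and 46.8% in control, so that YAP5SA and control lay within each other's intervals. The thinned venous share was 65.2% in YAP5SA, 46.3% in Yap knockout and 33.3% in control. Lrg1 and Selp are themselves among the venous genes and the connexins among the arterial ones, so these shares restate part of the differences above.

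**Figure D3:**
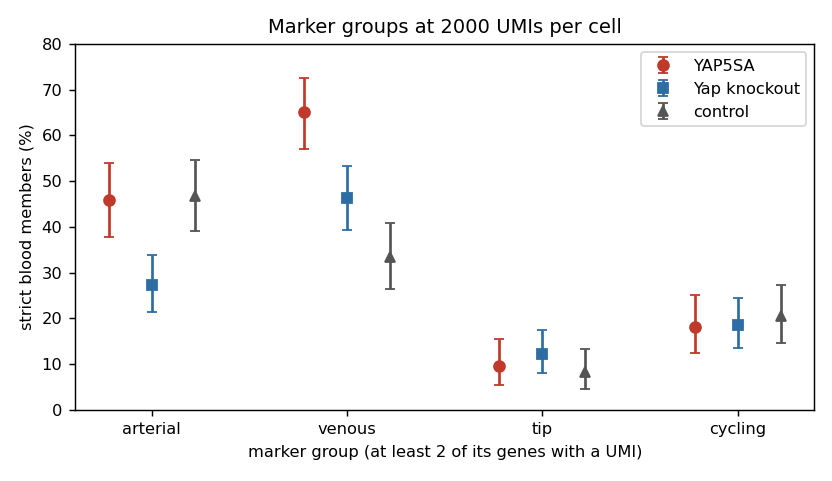
Share of strict blood cells (y axis, %) with at least 2 genes of each marker group (x axis) after thinning to 2000 UMIs, with 95% Clopper-Pearson intervals. Yap knockout has the lowest arterial share (27.3%), YAP5SA the highest venous share (65.2%), and the tip and cycling shares of the 3 libraries lie within each other's intervals.

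Genes outside the arterial list could then be read inside the cells with at least 5 arterial genes. Their median UMIs were 10007.5 in YAP5SA, 11507 in Yap knockout and 13237 in control. Eln had 7149.7 CPM in YAP5SA, 3516 CPM in Yap knockout and 7169.8 CPM in control there. Htra1 had 294 CPM in YAP5SA, 193 CPM in Yap knockout and 319 CPM in control. In these cells the YAP5SA level of Eln was that of control, while the Yap knockout level was still below it. Fbln5, which is not among the 10 genes of the split, had 1320.3 CPM in YAP5SA, 778 CPM in Yap knockout and 1219.7 CPM in control. Mgp had 3867 CPM in YAP5SA, 2821 CPM in Yap knockout and 4089.9 CPM in control. Both were again lowest in Yap knockout.

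The genes that set YAP5SA apart did so within the cells with at least 5 arterial genes too. In YAP5SA 12 of these 54 cells also had at least 5 of the venous genes, which include Lrg1. In control this held for 12 of 89 cells. The part of such cells in the levels was not tested. Lrg1 had 302 CPM in YAP5SA, 7.42 CPM in Yap knockout and 10.1 CPM in control, and Igfbp7 had 2967 CPM in YAP5SA, 836 CPM in Yap knockout and 929 CPM in control. Ramp3 had 143 CPM in YAP5SA, 17.8 CPM in Yap knockout and 15.7 CPM in control. The YAP5SA library was the highest for each. Slco2a1 had 339 CPM in YAP5SA, 202 CPM in Yap knockout and 128 CPM in control, and Fabp4 had 606 CPM in YAP5SA, 1104 CPM in Yap knockout and 1637 CPM in control, so that YAP5SA was the highest library for Slco2a1 and the lowest for Fabp4.

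In cells with fewer than 5 arterial genes these genes had the same order between YAP5SA and control. Lrg1 had 599.9 CPM in YAP5SA, 27.4 CPM in Yap knockout and 12.9 CPM in control. Igfbp7 had 3171 CPM in YAP5SA, 1001 CPM in Yap knockout and 1980.0 CPM in control, and Selp had 194 CPM in YAP5SA, 140.3 CPM in Yap knockout and 37.4 CPM in control. These genes were highest in YAP5SA, but Igfbp7 was here less than 2-fold above control. Fabp4 had 862 CPM in YAP5SA, 2315 CPM in Yap knockout and 2285 CPM in control, and Tcf15 had 54.8 CPM in YAP5SA, 141 CPM in Yap knockout and 161 CPM in control. Rbp7 had 36.2 CPM in YAP5SA, 70.7 CPM in Yap knockout and 151 CPM in control. The capillary genes were lowest in YAP5SA here as well. In cells with at least 5 venous genes Igfbp7 had 3637 CPM in YAP5SA, 1138 CPM in Yap knockout and 1869 CPM in control, Ramp3 had 131 CPM in YAP5SA, 15.8 CPM in Yap knockout and 23.6 CPM in control and Fabp4 had 615 CPM in YAP5SA, 2428 CPM in Yap knockout and 2259.7 CPM in control. YAP5SA was again the highest library for Igfbp7 and Ramp3, with Igfbp7 less than 2-fold above control, and the lowest for Fabp4. Plvap, which forms the diaphragms of fenestrated endothelium, had 1072 CPM in YAP5SA, 1043 CPM in Yap knockout and 1052 CPM in control. It was level between libraries in these cells. In all strict blood cells it had 850.2 CPM in YAP5SA, 781 CPM in Yap knockout and 582 CPM in control and was 1.46-fold higher (1.36 to 1.57) in YAP5SA.

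Cxcl9 and Cxcl10, chemokines that interferon induces, were higher in Yap knockout, while the median of the interferon list was close to that of all genes. Cxcl9, a chemokine for activated T cells, had 5.17 CPM in YAP5SA, 64.7 CPM in Yap knockout and 3.81 CPM in control, and was 17.0-fold higher (8.72 to 37.8) in Yap knockout than in control. It was found in 3 of 164 strict blood cells of YAP5SA, 23 of 214 of Yap knockout and 5 of 176 of control. At 2000 UMIs per cell Cxcl9 was in 0, 10 and 0 of these cells, and in 0.0682%, 0.229% and 0.0677% of non-members. Cxcl10, a second ligand of the same receptor, had 93.0 CPM in YAP5SA, 226 CPM in Yap knockout and 59.3 CPM in control and was 3.81-fold higher (3.16 to 4.62) in Yap knockout. Iigp1, an interferon-induced GTPase, had 70.8 CPM in YAP5SA, 138 CPM in Yap knockout and 40.2 CPM in control, and Irf1, a transcription factor of the interferon response, had 138 CPM in YAP5SA, 394 CPM in Yap knockout and 136 CPM in control and was 2.89-fold higher (2.55 to 3.29). Each was highest in Yap knockout. The summed immune markers were 217 CPM in that library, against 220.1 CPM in control, and their part in these levels was not tested. Of 28 genes of the interferon response and antigen presentation, 21 were measured, 3 were higher (Iigp1, Ifit1 and Gbp7) and 0 lower, beside 3.64% higher and 2.46% lower of all genes. The median log2 ratio of the list was 0.10, against 0.05 over all genes. Without members carrying markers of other lineages the log2 ratio of Cxcl10 over blood members was 2.61, against 1.59 with them.

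Of 38 endothelial transcription factors, 35 were measured in Yap knockout against control, 6 were higher and 0 lower, with a median log2 ratio of 0.14. Fli1 and Ets1 belong to the ETS family. Fli1 had 187 CPM in YAP5SA, 351 CPM in Yap knockout and 142 CPM in control and was 2.47-fold higher (2.17 to 2.81) in Yap knockout. Ets1 had 137 CPM in YAP5SA, 218 CPM in Yap knockout and 102 CPM in control and was 2.15-fold higher (1.84 to 2.51). An Ets1 UMI was found in 5.47% of thinned non-members of YAP5SA, 8.28% of Yap knockout and 4.13% of control. Yap knockout was thus the highest library for Ets1 in non-members too, so its rise was not limited to endothelium. The part of non-member RNA in the Ets1 level of blood cells was not tested. Tead1, a DNA-binding partner of YAP and TAZ, had 124 CPM in YAP5SA, 255 CPM in Yap knockout and 94.0 CPM in control and was 2.71-fold higher (2.33 to 3.18). Kitl, the ligand of the receptor KIT, had 132 CPM in YAP5SA, 355 CPM in Yap knockout and 143 CPM in control and was 2.48-fold higher (2.19 to 2.82). Yap knockout was the highest library for each of these. Flt1, a receptor that traps VEGF, had 979 CPM in YAP5SA, 1239 CPM in Yap knockout and 632 CPM in control, with both mutants above control. Angpt2, which loosens vessels for sprouting, had 11.9 CPM in YAP5SA, 25.6 CPM in Yap knockout and 6.35 CPM in control and was 4.02-fold higher (2.26 to 7.62) in Yap knockout, and 2.34-fold higher over all blood members. In YAP5SA against control, 34 of these transcription factors were measured, with 0 higher and 2 lower. Of 27 tip and angiogenic genes, 24 were measured in Yap knockout against control with 1 higher and 0 lower, and 23 in YAP5SA against control with 2 higher and 0 lower. The shares over all genes were 3.64% higher and 2.46% lower in Yap knockout, and 2.48% higher and 1.29% lower in YAP5SA.

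Some of the highest and lowest ratios came from 1 cell each. In Yap knockout the highest genes over blood members included Apoc2, Apoc3, Fabp2, Rbp2, Prap1 and Apoa4, which intestinal and liver epithelium uses to handle fats and retinol. In the strict class a single cell held between 94.2% (Apoa1) and 97.7% (Apoc2) of the UMIs of each of Apoc2, Apoc3, Prap1, Apoa4, Fabp2, Rbp2 and Apoa1. In YAP5SA, Ccl21a was the second highest gene over blood members, and 93.5% of its UMIs lay in 1 cell. Without the richest cell of each library its log2 ratio was 0.35. The genes lowest in YAP5SA over blood members were likewise not of endothelium. They included Atp4a and Atp4b, the subunits of the proton pump of parietal cells, and Stmn3, Tubb3, Prph and Cartpt of neurons. For 6 of the 12 lowest at least 50% of the control UMIs lay in 1 cell, against 1 of the 12 highest in YAP5SA. In Yap knockout this held for 8 of the 12 highest genes.

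**Figure D4:**
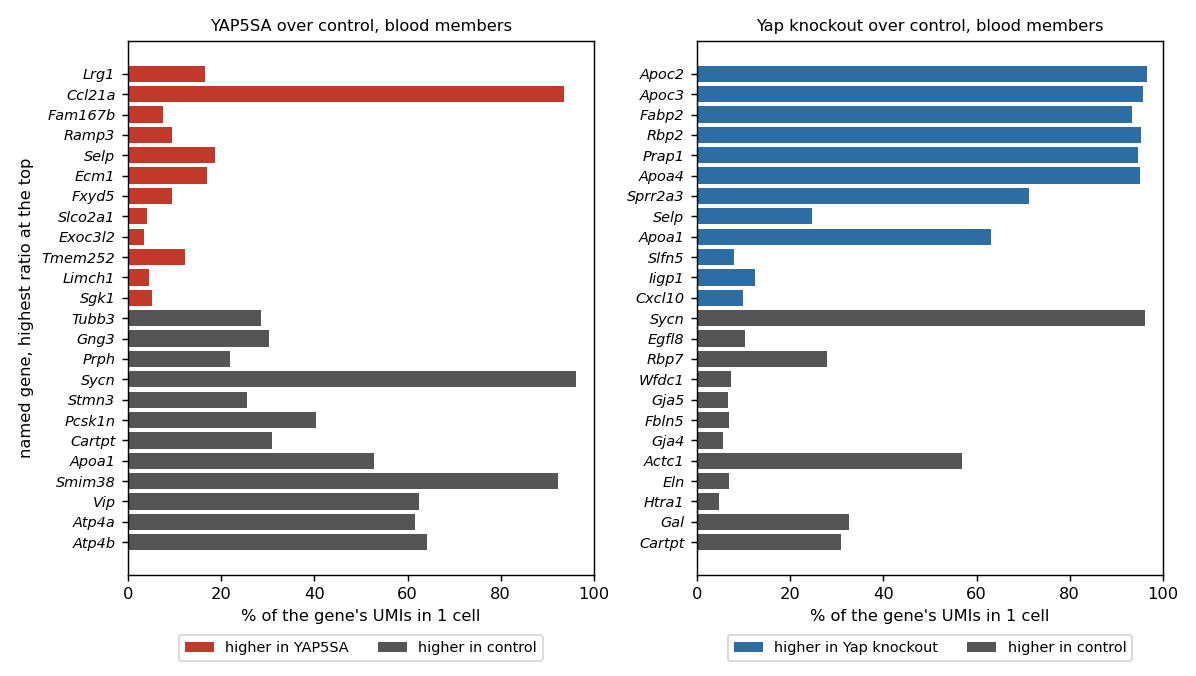
Share of a gene's UMIs that lay in the 1 richest cell (x axis, %) for the 12 highest and 12 lowest genes of each comparison over all blood members (y axis), in the library where the gene was higher. The bar of Ccl21a in YAP5SA reaches 93.5%, while those of Lrg1 (16.6%) and of Gja4 in control (5.66%) are short.

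Lymphatic members numbered 65 of 255 in YAP5SA (25.5%, 20.3 to 31.3), 36 of 288 in Yap knockout (12.5%, 8.91 to 16.9) and 53 of 291 in control (18.2%, 14.0 to 23.1). The label held at the upper end of the rule and not at the lower. Members with 2 lymphatic genes had a Ccl21a level, which the rule does not use, of 134, 68.0 and 19.3 CPM in YAP5SA, Yap knockout and control. With 4 genes it was 17871, 22817 and 11153 CPM. Flt1, which blood endothelium carries, ran the other way, with 558, 1209 and 429 CPM at 2 genes. With 4 or 5 genes it had 8.51 CPM in YAP5SA, 28.5 CPM in Yap knockout and 22.2 CPM in control, from 3, 3 and 6 UMIs. Ccl21a has near-identical copies in the mouse genome, of which the files list this symbol, so its level is uncertain as that of a single gene. Members with 4 or 5 lymphatic genes numbered 28 of 255 in YAP5SA (10.98%), 7 of 288 in Yap knockout (2.43%) and 19 of 291 in control (6.53%). The Yap knockout library held the smallest share by either count. It had fewer than 50 lymphatic members, so no ratio to control is given for it.

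**Figure D5:**
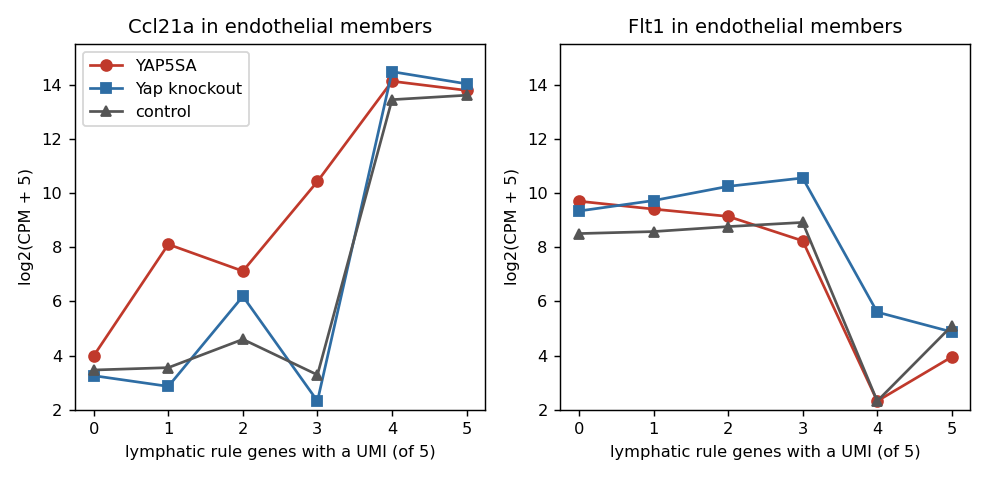
Level of Ccl21a (left) and Flt1 (right) on log2(CPM + 5) in members grouped by the number of the 5 lymphatic genes with a UMI (x axis), 1 line per library. Ccl21a is high and Flt1 low at 4 and 5 genes in all 3 libraries, and the members with 2 genes lie nearer to blood members.

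Cells with 4 or 5 lymphatic genes carried several further lymphatic genes that the rule does not use, in all 3 libraries, but not every gene of that list. Set against members with fewer, 284 of 3993 genes were at least 2-fold higher (7.11%) in YAP5SA, 393 of 4095 (9.6%) in Yap knockout and 343 of 3938 (8.71%) in control. The lower genes numbered 407 (10.2%), 956 (23.3%) and 401 (10.2%). These cells were chosen by their genes, so the counts describe them and support nothing. Ccl21a had 14830.0 CPM in YAP5SA, 18045 CPM in Yap knockout and 12167 CPM in control. Thy1, a surface glycoprotein, had 751 CPM in YAP5SA, 685 CPM in Yap knockout and 704 CPM in control. Tbx1, a transcription factor needed for lymphatic growth in the mouse, had a log2 ratio of 4.76 in YAP5SA, 4.72 in Yap knockout and 4.65 in control. Stab1, a scavenger receptor, had 1219 CPM in YAP5SA, 1179 CPM in Yap knockout and 1086 CPM in control. All of these were far above their level in the other members. Gata2, also listed as lymphatic, had 17.0, 19.0 and 33.4 CPM in YAP5SA, Yap knockout and control. It had 21.0, 32.4 and 39.5 CPM in members with 2 or 3 lymphatic genes. Kcnj8 was likewise lower in all 3 libraries, and Efnb2 in Yap knockout and control, all from few UMIs. Of the rule's own genes Lyve1, a hyaluronan receptor, had 879 CPM in YAP5SA, 1597 CPM in Yap knockout and 634 CPM in control, Prox1 had 198 CPM in YAP5SA, 181 CPM in Yap knockout and 293 CPM in control and Flt4 had 493 CPM in YAP5SA, 532 CPM in Yap knockout and 374 CPM in control. The genes lower in these cells included Vwf, Flt1, Madcam1 and Gja5. Emcn, one of the 8 rule genes, had 31.2 CPM in YAP5SA, 0 CPM in Yap knockout and 22.2 CPM in control, and its 0 in 7 cells of Yap knockout could not be told from these levels, since 3 counts would make 28.5 CPM there.

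Between YAP5SA and control, 139 of 3825 genes were higher (3.63%) and 146 lower (3.82%) over all lymphatic members, and 4.2% were higher and 3.9% lower at 20 CPM. Some of these members, with fewer than 4 lymphatic genes, are also in the strict blood class. Lrg1 was the highest, with 329.6 CPM in YAP5SA against 23.8 CPM in control, 13.8-fold higher (9.54 to 20.7). In the cells with 4 or 5 lymphatic genes it had 482 CPM in YAP5SA, 19.0 CPM in Yap knockout and 63.0 CPM in control. Lrg1 was thus highest in YAP5SA in these cells, which the strict blood class leaves out, and in strict blood cells on either side of the split at 5 arterial genes. Selp had 107 CPM in YAP5SA against 7.95 CPM in control over all lymphatic members, but in the cells with 4 or 5 lymphatic genes it had 0 UMIs in YAP5SA and 2 in control. Gja5 had 16.1 CPM in YAP5SA against 229 CPM in control, and 12 of 22 measured arterial genes were lower. In the cells with 4 or 5 lymphatic genes Gja5 had 0 UMIs in YAP5SA and 4 in control, so its RNA among lymphatic members lay nearly all in those with 2 or 3 lymphatic genes.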

How the data were processed

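Hindstomachs at E18.5 were digested in trypsin with DNase I, erythrocytes were lysed, and 3′ single-cell libraries were prepared with a DNBelab C Series kit, per the labels' protocols. The deposited values are raw UMI counts per gene and cell. They were written with PISA 1.0, per the file headers, after STAR alignment to GRCm39, per the submitters' processing notes, and no normalization or free-RNA correction is stated. No deposited cell had fewer than 1000 UMIs.

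The YAP5SA library held 9439 cells and 65843658 UMIs, Yap knockout 5739 cells and 40857358 UMIs, and control 7692 cells and 48910624 UMIs. The filters stated with the rule kept 9029, 5201 and 7372 cells, with median UMIs of 5255, 5021 and 4949.5. Cell names are serial labels rather than barcodes, and 1528 (YAP5SA and Yap knockout), 2409 (YAP5SA and control) and 1388 (Yap knockout and control) names recur, so shared barcodes could not be counted. The doublet caller Scrublet (scanpy 1.11.5) called 0 cells at its own threshold. Its highest-scoring 6% per library were left out as an alternative only. A cell with at least 2 detected markers of another lineage counted as mixed, and 61.6% of YAP5SA, 44.4% of Yap knockout and 62.2% of control members were mixed, against 72.9%, 56.1% and 66.0% of non-members.

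UMIs were summed per class and library and scaled to CPM. Intervals of ratios are exact conditional Poisson intervals, and those of shares are Clopper-Pearson intervals. Ratios on the log2 scale used log2(CPM + 5), which understates the change of low genes. In genes at 0, the level that 3 counts would give was 1.55 CPM in strict blood cells of YAP5SA and 1.24 CPM in those of Yap knockout. Thinning drew 2000 UMIs per cell. The procedure was tested on simulated counts. Named genes were the 12 highest and 12 lowest of each comparison among genes at least 2-fold above non-members in the library with the higher level, so that a gene could enter through 1 library alone, up to 4 members at either end of each list, and a fixed set. Other genes were named with their values known. The members and lists were chosen with earlier results of these data known, and the strict class and the splits at 5 genes after seeing the data. TMM scaling used edgeR 4.0.16 in R 4.3.3, and the rest used scipy 1.17.1, numpy 2.4.6, pandas 2.3.3 and matplotlib 3.10.9 in Python 3.11.15. With 1 library per genotype no count model was fitted.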

Additional observations from a re-analysis of the deposited data

How the results depend on the processing

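No paired analysis was possible because each genotype has 1 library. The causes of the changes below were not tested. Of 114 shares under alternatives 85 moved beyond their intervals. Of 66 counts of genes 23 moved by over 1.5 times. Of 563 list medians 58 moved and 14 changed sign, and of 1290 ratios of named genes 347 moved and 14 changed sign. Values below run YAP5SA, Yap knockout, control unless named.

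The share of members was 4.81%, 8.42% and 6.76% at 3 or more rule genes, 2.31%, 4.67% and 2.92% at 5, 2.005%, 4.21% and 2.58% at 6, 1.09%, 3.08% and 1.49% without mixed cells, and 2.10%, 4.37% and 2.73% after thinning. Yap knockout was the highest in each. The lymphatic share was 17.5% in YAP5SA and 12.05% in control at 3 or more rule genes, 13.3% and 10.0% without mixed cells, and 11.9%, 2.19% and 8.28% after thinning. It was 50.6%, 44.1% and 45.7% at 1 or more lymphatic genes, 14.1%, 2.78% and 9.28% at 3, 10.98%, 2.43% and 6.53% at 4, and 9.39%, 2.28% and 7.37% at 6 rule genes with 4 lymphatic genes.

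Shares of blood members with marker groups moved as follows. After thinning they were 47.1%, 26.8% and 49.7% arterial, 65.7%, 49.7% and 36.1% venous, 10.0%, 10.6% and 9.68% tip, and 16.4%, 16.8% and 16.8% cycling. At 3 genes they were 46.3%, 32.1% and 50.4% arterial, 62.6%, 54.4% and 50.0% venous, 14.2%, 14.7% and 12.2% tip, and 31.1%, 29.8% and 33.2% cycling. At 5 genes they were 26.8%, 15.1% and 30.7% arterial, 29.5%, 17.5% and 11.8% venous, 1.58%, 1.59% and 1.68% tip, and 18.9%, 19.0% and 20.6% cycling. In the strict class they were 71.3%, 61.2% and 77.3% arterial and 43.9%, 45.3% and 50.0% tip, with 83.6% venous in Yap knockout. Without mixed cells YAP5SA had 77.6% venous, 20.0% tip and 20.0% cycling, Yap knockout 47.2% arterial, 31.7% tip and 31.0% cycling, and control 64.6% venous and 21.2% cycling.

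Counts of genes at 2-fold (higher, lower) in blood members of YAP5SA were 297 and 388 at 20 CPM, 507 and 612 with no filter, and 95 and 48 in the strict class, with 72 lower at 5 rule genes and 98 lower without mixed cells. For Yap knockout they were 278 and 285 at 20 CPM, 465 and 401 with no filter, 106 lower in the strict class, 239 higher without mixed cells and 87 higher with a pseudocount of 20 CPM. For lymphatic members of YAP5SA they were 325 and 302 at 20 CPM, 661 and 559 with no filter, 907 and 625 without mixed cells, 216 higher at 4 lymphatic genes and 91 lower with a pseudocount of 20 CPM. TMM scaling moved the median log2 ratio of all genes in YAP5SA blood members from 0.10 to −0.01, and the higher share of calls from 44.0% to 35.1%. The higher share was 66.4% in the strict class and 63.8% without mixed cells.

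Signs changed for these log2 ratios. In YAP5SA blood members without mixed cells Apoa1 was 0.0469, Tubb3 0.20, Ccn2 −0.0363 and Ackr1 −0.76, the last with 0 UMIs in YAP5SA and 2 in control. List medians at 5 rule genes were −0.0527 (pan-endothelial), 0.30 (platelet) and −0.0325 (rule genes). In the strict class they were −0.0309 (pan-endothelial), −0.0265 (VEGF and Tie), −0.00539 (junctions), 0.24 (platelet) and −0.0393 (rule genes), and the arterial list, at −0.38 in the strict class, was 0.16 over all blood members. In YAP5SA lymphatic members without mixed cells Krt17 was −0.60, Sbno2 −0.0330 and Pcsk1n 1.91, and at 4 lymphatic genes Selp was −1.31, Fam110d −0.25 and Stmn3 0.29. In Yap knockout blood members without mixed cells the lipid list was −0.0522, the immune list −0.16, Sprr2a3 −0.56, Cartpt 0.64, Gal 0.21 and Actc1 0.30. At 5 rule genes the platelet list was 0.62. In the strict class the lipid list was −0.0465, the stress list 0.0482 and the immune list −0.31.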

Other observations

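Of 26 genes of glycolysis and the hypoxia response, 23 were measured in strict blood cells of YAP5SA against control. Of these, 2 were higher and 0 lower, beside 2.48% higher and 1.29% lower of all genes, with a median log2 ratio of 0.50 for the list. The same list had a median of 0.60 in non-members. The 2 were Slc2a3 and Slc2a1, which encode glucose transporters. Slc2a3 had 64.6 CPM in YAP5SA, 16.9 CPM in Yap knockout and 8.46 CPM in control. Slc2a1 had 210.3 CPM in YAP5SA, 91.5 CPM in Yap knockout and 74.5 CPM in control and was 2.82-fold higher (2.36 to 3.39) in YAP5SA, against 5.42-fold higher over all blood members, and its level in non-members was 292, 50.1 and 57.3 CPM. In Yap knockout against control 22 genes were measured with 0 higher and 0 lower and a median of −0.04. Lef1, a transcription factor of Wnt signalling, had 38.8 CPM in YAP5SA, 0.824 CPM in Yap knockout and 2.96 CPM in control and was 13.1-fold higher (6.05 to 33.7) in YAP5SA, against 24.2-fold higher over all blood members. Its level in non-members was 13.4, 1.57 and 2.16 CPM.

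Replication and mitosis genes lay near control. Of 34, 32 were measured in YAP5SA against control with 0 called and a median log2 ratio of 0.01, beside 2.48% higher and 1.29% lower of all genes. In Yap knockout against control 33 were measured with 2 higher, 0 lower and a median of −0.06, beside 3.64% and 2.46% of all genes. The thinned share of cycling cells in the strict class was 18.1% in YAP5SA, 18.5% in Yap knockout and 20.5% in control. Of 25 junction genes, 22 were measured in Yap knockout against control with 1 higher and 3 lower, beside 3.64% higher and 2.46% lower of all genes. Cldn5, the main tight junction claudin of endothelium and a gene of the rule, had 1204 CPM in YAP5SA, 938 CPM in Yap knockout and 1903 CPM in control, lower in both mutants than in control. In cells with at least 5 arterial genes it had 2115 CPM in YAP5SA, 1189 CPM in Yap knockout and 2368 CPM in control. Kdr, the main receptor for VEGF-A and also in the rule, had 481 CPM in YAP5SA, 527 CPM in Yap knockout and 369 CPM in control, above control in both. Both genes helped to choose these cells, so their levels describe the class and support nothing. Thinned non-members of YAP5SA, Yap knockout and control had a Cldn5 UMI in 1.71%, 1.68% and 3.37% of cells and a Kdr UMI in 1.34%, 2.45% and 2.05%. Among the VEGF ligands in non-members, Vegfa had 43.3 CPM in YAP5SA, 50.8 CPM in Yap knockout and 30.5 CPM in control, and Vegfd, a ligand of lymphatic growth, had 13.8, 5.33 and 35.7 CPM.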
